A study of Homo sapiens with 20 samples.

Results

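Human chromosome 19 carries the densest collection of zinc finger genes in the genome, and 203 of them, all with numbered ZNF symbols, were detected in HEK293 cells that express the glucocorticoid receptor. They were chosen as protein-coding symbols of the form ZNF plus a number on chromosome 19 whose transcript with the most reads averaged at least 50 raw counts over 16 RNA libraries. Of 242 such symbols on the chromosome, 203 reached this minimum and 39 did not, out of 27896 symbols in the count table. They were thus selected on their average count over all libraries, not on a difference between groups, and all 203 passed the filter on low counts of the test. ZNF837 (mean 50.2 counts) and ZNF320 (55.0) lay just inside the minimum, and ZNF682 (47.3) and ZNF888 (46.8) just outside.

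HEK293-GR is a human embryonic kidney cell line engineered to express the receptor constitutively. The cells were transfected with 20 nM of an siRNA pool against BCOR (siBCOR) or of a non-targeting pool (siNON) for 72 h, held in steroid-depleted medium for 48 h and given 100 nM dexamethasone (dex), a synthetic glucocorticoid, or its ethanol vehicle for 6 h. The 4 RNA groups, with 4 libraries each, were siBCOR dex, siBCOR vehicle, siNON dex and siNON vehicle. All cells carry the receptor, every RNA culture was transfected, and no untransfected RNA group was analysed here. BCOR binding had been mapped by chromatin immunoprecipitation in cells given dex or vehicle for 1 h (2 libraries each). For these cells the labels list 48 h in medium and no siRNA, so peaks and RNA come from cultures treated differently. The deposited lists hold 3055 peaks enriched with dex, 267 enriched with vehicle and 8587 shared between both.

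Most zinc finger proteins of this chromosome join an array of C2H2 fingers, which reads DNA, to a KRAB domain, which recruits the corepressor TRIM28 (KAP1) and with it the histone methyltransferase SETDB1. Many of them silence retroelements, and the genes arose by repeated local duplication, so that neighbours in a cluster are often close paralogs. BCOR is a subunit of the variant Polycomb complex PRC1.1, which is brought to CpG islands by KDM2B. The questions here were whether the level of these genes depends on BCOR or on the hormone, whether the clusters differ, and whether BCOR is bound at their start sites.

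The libraries held 18580291 to 28054809 reads on the transcripts used. BCOR itself averaged 14.7 CPM (reads of a gene per 1000000 reads of its library) in siBCOR dex and 22.4 CPM in siBCOR vehicle, against 93.8 CPM in siNON dex and 196 CPM in siNON vehicle. The kidney-line markers VIM, KRT8 and KRT18 were high, with medians of 410 CPM, 430.0 CPM and 185 CPM. NEFM (8.13 CPM) and PAX2 (3.79 CPM) were low but present. Of the markers of other cell types, HBB had no read and PTPRC, CD3E, DCN, COL1A2, CDH5 and ALB had medians of at most 0.0454 CPM, while PECAM1 had 0.471 CPM. Nothing in the labels says that replicates came from separate cultures, so p-values measure the spread between these libraries, which may be technical. The reads of close paralogs and of overlapping genes could not be told apart from these counts, since neither the treatment of multi-mapping reads nor the use of strand is stated, and 23 of the 203 genes overlap another gene with at least 10 counts on average.

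The summed level of the 203 genes was the highest on average in siBCOR dex. It was 3949 ± 117 CPM in siBCOR dex, 3548 ± 369 CPM in siBCOR vehicle, 3372 ± 335 CPM in siNON dex and 3667 ± 408 CPM in siNON vehicle (SD, n = 4 each). The lowest and highest libraries were 3788 and 4055 CPM in siBCOR dex, 3051 and 3873 CPM in siBCOR vehicle, 3093 and 3858 CPM in siNON dex, and 3322 and 4225 CPM in siNON vehicle. The siBCOR dex range overlapped the other 3 ranges. Replicate 4 of siNON dex (3858 CPM) and replicate 3 of siNON vehicle (4225 CPM) stood above their groups, and replicate 2 of siBCOR vehicle (3051 CPM) stood below its group.

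**Figure D1:**
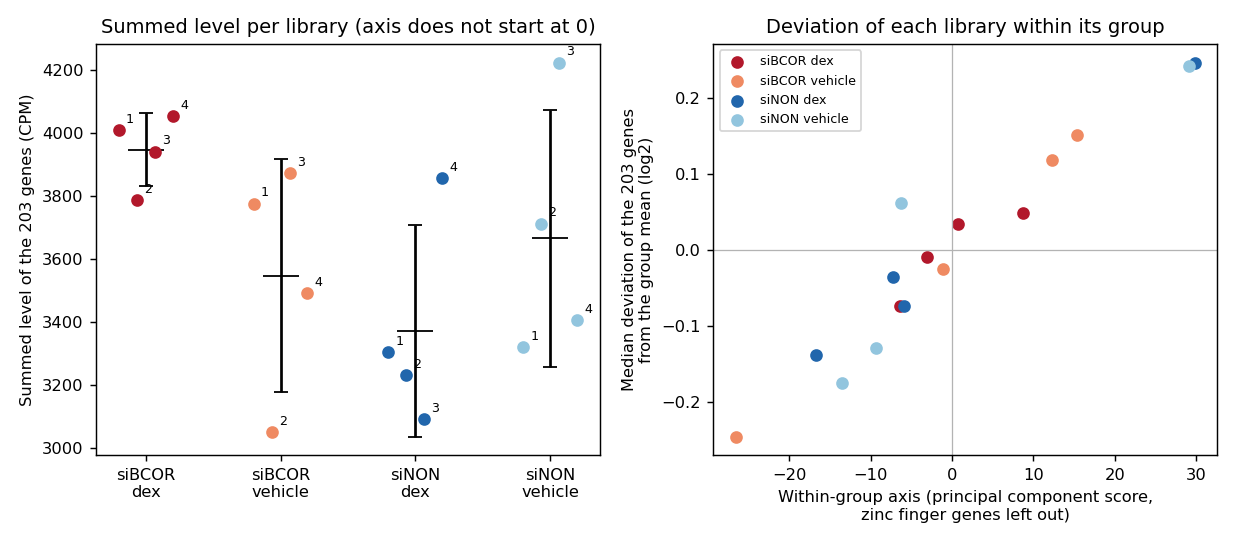
Left, summed level in CPM of the 203 zinc finger genes in each library, with replicate numbers beside the points and bars for the mean ± SD of 4 libraries (the vertical axis does not start at 0); siBCOR dex lies between 3788 and 4055 CPM, and single libraries of the other groups lie far from their group. Right, the median deviation of the 203 genes from their group mean (log2) against the libraries' score on the main axis of within-group variation. The axis was computed without symbols that begin with ZNF, ZFP, ZSCAN, ZIK, ZIM, ZKSCAN, ZBTB or ZBED. The points rise together (Pearson r = 0.960 over 16 libraries).

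These libraries also stood apart in the rest of the transcriptome. The first principal component of the libraries' deviations from their group means held 38.2% of the within-group variance. It was computed without symbols that begin with ZNF, ZFP, ZSCAN, ZIK, ZIM, ZKSCAN, ZBTB or ZBED, and zinc finger genes with other names stayed in. The median deviation of the 203 genes followed it, with Pearson r = 0.960 and Spearman rho = 0.938 over 16 libraries, and r = 0.928 over 14 libraries without the pair farthest out. This is a description, since the points share library preparation and depth and were centred by group. Among single genes, 146 of 203 (71.9%) had r above 0.5 with this axis, against 30.6% of all genes. The median r was 0.81 for the 203 genes, −0.07 for all genes and −0.67 for the other protein-coding genes of chromosome 19. The part of this axis in the differences between groups was not tested, and counts are given below with and without the libraries that carry it.

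In the presence of dex, BCOR-depleted cells held more RNA of many of these genes. In siBCOR dex against siNON dex, 84 of the 203 genes rose and 17 fell at an adjusted p of 0.05 (edgeR's quasi-likelihood test over all 16432 genes tested, Benjamini-Hochberg), with 102 not called. Over all genes tested, 20.7% rose and 18.8% fell. The median log2 fold change was 0.33 and 169 of the 203 values were above 0, against a median of 0.02 over all genes. In 70 of the 203 genes every siBCOR dex library lay above every siNON dex library, and in 14 every one lay below, against 16.6% and 17.6% of all genes. Of 202 ZNF genes on other chromosomes, 47 rose and 30 fell (median 0.06), and of the 675 other protein-coding genes on chromosome 19, 20 rose and 268 fell (median −0.21). A further 14 zinc finger symbols on chromosome 19 were read apart (ZNF numbers followed by a letter, ZFP, ZSCAN, ZIK and ZIM). Of these 14, 5 rose and 0 fell (median 0.29). Leaving out siNON dex replicate 4 gave 126 higher and 20 lower, against 27.0% and 22.3% over all genes. Leaving out siNON dex replicate 1, or siBCOR dex replicate 4, left 55 higher, against 12.6% and 14.6% of all genes. Leaving out siNON dex replicate 2 or replicate 3 left 51, against 12.4% and 11.6% of all genes. The 17 became 11 without siNON dex replicate 1, 2 or 3, against 14.5%, 14.1% and 13.7% of all genes. With the 3 libraries that stand apart all left out, 139 rose and 24 fell, against 28.1% higher and 29.3% lower over all genes; leaving out such libraries lowers the spread by construction.

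**Figure D2:**
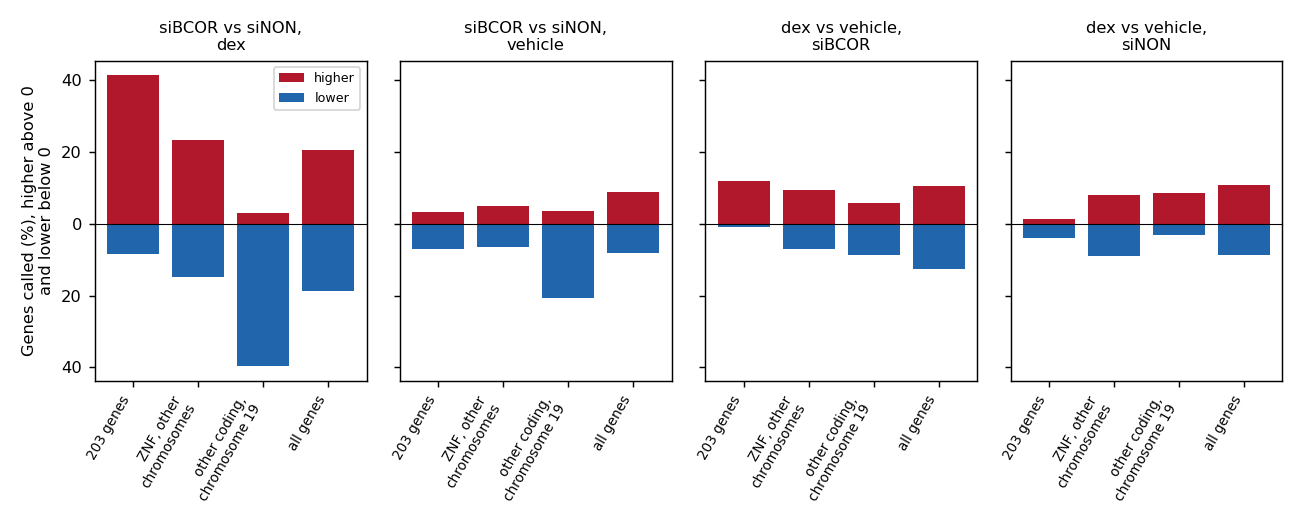
Share of genes called higher (above 0) and lower (below 0) in each comparison, in percent, for the 203 zinc finger genes, 202 ZNF genes on other chromosomes, 675 other protein-coding genes on chromosome 19 and all 16432 genes tested. With dex, 84 of the 203 genes are higher after BCOR depletion, while 268 of the 675 other protein-coding genes on chromosome 19 are lower.

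ZNF528, a gene of the large cluster on the long arm, had the largest change. It had 18.7, 16.7, 18.0 and 22.4 CPM in siBCOR dex, against 7.70, 8.08, 8.56 and 11.9 CPM in siNON dex, with no overlap. Its log2 fold change was 1.07 ± 0.17 (SE), or 2.09-fold, with an adjusted p of 0.00031. In vehicle it had 18.0, 12.1, 18.8 and 15.3 CPM in siBCOR, against 8.80, 12.4, 13.5 and 8.85 CPM in siNON. There the groups overlapped, and the fold was 1.48 with an adjusted p of 0.0316.

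ZNF813, farther along the same cluster, had 4.43, 3.88, 4.38 and 5.53 CPM in siBCOR dex, against 2.19, 2.07, 1.83 and 3.53 CPM in siNON dex (1.91-fold, adjusted p = 0.00327). The groups did not overlap, and the highest siNON dex library was again replicate 4. ZNF507, which stands alone between clusters, had 104, 93.0, 107 and 114 CPM in siBCOR dex, against 49.6, 48.4, 43.0 and 83.5 CPM in siNON dex (1.87-fold, adjusted p = 0.00523). Its vehicle libraries spread as widely as the dex groups differed, with 85.9, 56.5, 99.6 and 78.8 CPM in siBCOR and 61.2, 64.0, 107 and 56.5 CPM in siNON. ZNF546, ZNF229 and ZNF302 followed with 1.81-fold, 1.78-fold and 1.77-fold higher levels in siBCOR dex.

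ZNF302 is also the called gene with the largest rise among those with a BCOR peak at the start site. It had 59.6, 52.7, 59.9 and 62.7 CPM in siBCOR dex, against 33.0, 31.4, 28.1 and 40.0 CPM in siNON dex, with no overlap (log2 fold change 0.83 ± 0.15 SE, adjusted p = 0.000619). In vehicle, siBCOR libraries had 50.1, 37.7, 58.2 and 50.5 CPM and siNON libraries 33.0, 45.2, 53.7 and 38.4 CPM, which overlapped and did not pass the test.

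Among genes with a known role, ZNF350 (ZBRK1, a partner of BRCA1 in repression) rose by 0.54 on the log2 scale and ZNF224, a repressor of aldolase A, by 0.50. ZNF331, an imprinted gene, had 39.9, 35.9, 36.4 and 36.7 CPM in siBCOR dex, against 27.6, 28.3, 27.7 and 31.0 CPM in siNON dex (1.30-fold, adjusted p = 0.00533), and the groups did not overlap. These 3 and ZNF91 below were named for their roles after their values were seen, ZNF331 also through its peak. ZNF91, which silences SVA retroelements, had 7.35, 7.45, 8.59 and 10.3 CPM in siBCOR dex and 4.75, 4.75, 5.32 and 8.75 CPM in siNON dex and was not called.

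**Figure D3:**
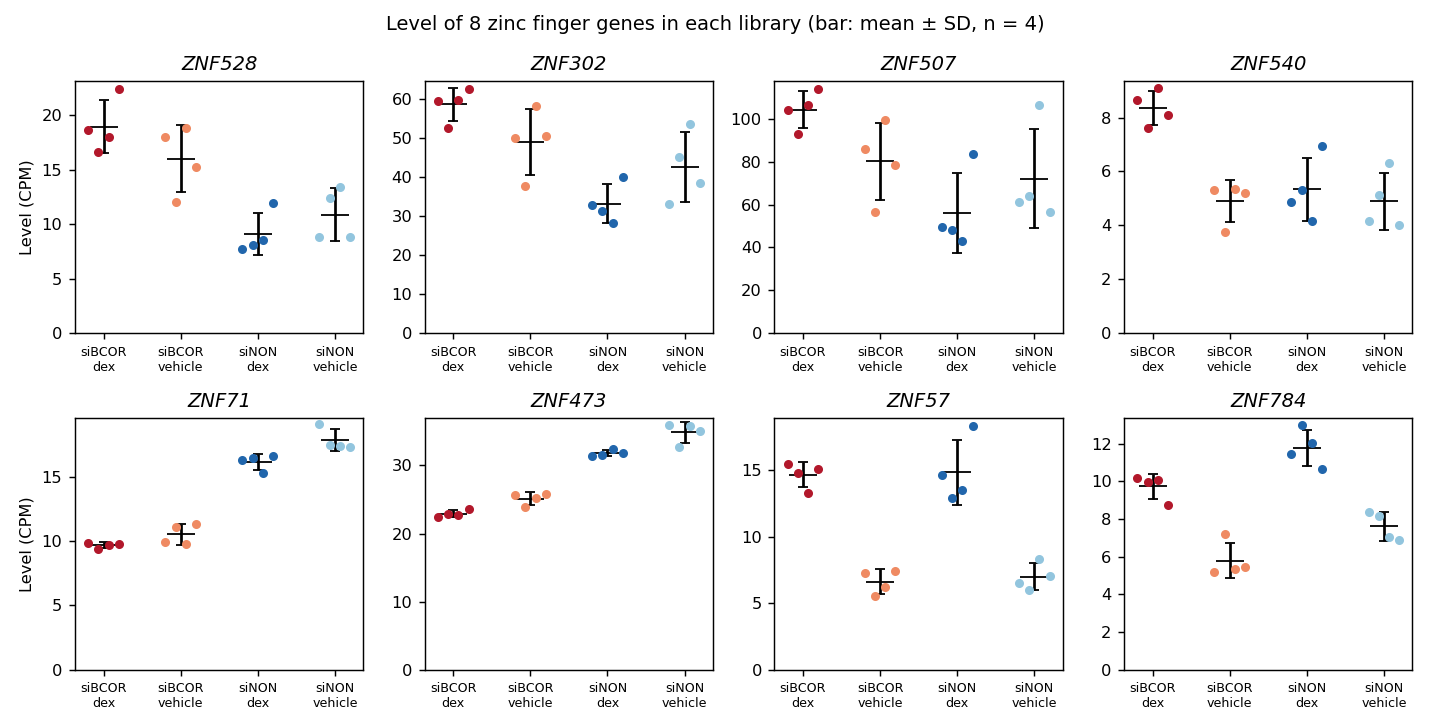
Level in CPM of 8 zinc finger genes in each of 16 libraries, with bars for the mean ± SD of 4 libraries; each vertical axis starts at 0. The mean levels of ZNF528, ZNF302, ZNF507 and ZNF540 are highest in siBCOR dex, ZNF71 and ZNF473 are lower in both siBCOR groups, and ZNF57 and ZNF784 are higher in both dex groups.

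Without hormone, the shares of these genes that were called lay below those of all genes. In siBCOR vehicle against siNON vehicle, 7 genes rose and 14 fell, while over all genes tested 8.87% rose and 8.23% fell. The median log2 fold change over the 203 genes was 0.005. Of the 14 that fell in vehicle, 9 also fell in dex, which is 64.3% of the 14 and 52.9% of the 17 that fell in dex. Over all genes tested, 78.6% of those that fell in vehicle also fell in dex, which is 34.4% of those that fell in dex. The 9 were ZNF71, ZNF77, ZNF274, ZNF444, ZNF473, ZNF581, ZNF628, ZNF784 and ZNF787. Of the 7 that rose in vehicle, ZNF233, ZNF528, ZNF530, ZNF814 and ZNF880 also rose in dex. These 5 are 71.4% of the 7 and 5.95% of the 84 that rose in dex. Over all genes tested, 48.7% of those that rose in vehicle also rose in dex, which is 20.8% of those that rose in dex. The vehicle counts were small and moved with single libraries. The 7 became 2 without siBCOR vehicle replicate 1 or 3 or siNON vehicle replicate 4, 3 without siNON vehicle replicate 1, 4 without siBCOR vehicle replicate 4 and 16 without siBCOR vehicle replicate 2. The shares of all genes that rose were, in the same order, 5.38%, 6.41%, 6.02%, 6.00%, 6.59% and 10.6%. The 14 became 7 without siBCOR vehicle replicate 3, 8 without siBCOR vehicle replicate 1 or siNON vehicle replicate 1 or 4, and 9 without siBCOR vehicle replicate 4 or siNON vehicle replicate 2. The shares of all genes that fell were, in the same order, 5.61%, 5.56%, 5.69%, 5.96%, 6.65% and 6.94%. With the 3 libraries that stand apart left out, 50 rose and 25 fell, while 17.6% of all genes rose and 21.1% fell.

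ZNF71 had the largest fall in both comparisons. It had 9.85, 9.39, 9.73 and 9.81 CPM in siBCOR dex and 9.94, 11.1, 9.74 and 11.4 CPM in siBCOR vehicle, against 16.3, 16.5, 15.3 and 16.6 CPM in siNON dex and 19.1, 17.5, 17.4 and 17.3 CPM in siNON vehicle. No siBCOR library reached any siNON library. The log2 fold change was −0.74 ± 0.07 in dex (adjusted p = 2.32e-06) and −0.76 ± 0.07 in vehicle (adjusted p = 3.15e-06).

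ZNF473 encodes ZFP100, a component of the machinery that processes histone pre-mRNA 3′ ends. It had 22.4, 22.8, 22.8 and 23.6 CPM in siBCOR dex and 25.7, 23.8, 25.2 and 25.8 CPM in siBCOR vehicle, against 31.3, 31.5, 32.4 and 31.8 CPM in siNON dex and 35.9, 32.7, 35.8 and 35.0 CPM in siNON vehicle. The groups did not overlap, and the log2 fold change was −0.47 ± 0.06 in each (adjusted p = 2.02e-05 in dex and 4.47e-05 in vehicle). ZNF274, which binds the 3′ ends of zinc finger genes and recruits SETDB1 there, changed little in size but passed the test. It had 57.4, 55.3, 52.6 and 54.4 CPM in siBCOR dex, against 60.9, 64.9, 61.5 and 61.3 CPM in siNON dex, a log2 fold change of −0.18, and the change in vehicle was also −0.18.

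Of the 9 genes that fell at both treatments, ZNF444 carries a SCAN domain, and ZNF581, ZNF784 and ZNF787 are known as finger proteins without KRAB. The domains of the other genes that fell were not compared, and no link between domain and fall was tested. ZNF787 had 17.7, 19.4, 18.0 and 15.9 CPM in siBCOR dex, against 25.5, 25.9, 24.5 and 25.9 CPM in siNON dex (log2 fold change −0.52, adjusted p = 0.00448). ZNF581 had 19.0, 20.1, 19.1 and 18.3 CPM in siBCOR dex, against 27.1, 27.5, 29.1 and 26.1 CPM in siNON dex (−0.52, adjusted p = 0.000822). Neither pair of groups overlapped. The 17 genes that fell in dex had a median exon length of 2057 bases and a median of 647 counts per library. The 84 that rose had a median exon length of 3822 bases and a median of 204 counts.

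The genes that rose and those that fell were unevenly placed along the chromosome. Ordered by start site, with a gap over 500 kb between neighbours opening a new cluster, the 203 genes formed 21 clusters, of which 10 held at least 5 genes and 188 genes in all, while 9 genes stood alone. In the cluster from ZNF175 to ZNF331, with 33 genes over 1950 kb of the long arm, 26 rose in siBCOR dex against siNON dex, none fell and the median log2 fold change was 0.54. Next to it, in the cluster of 15 genes from ZNF628 to ZNF71, 4 rose, 7 fell and the median was −0.27. Within that second cluster the falls and rises lay in separate stretches. From ZNF628 (−0.49) to ZNF444 (−0.42), 6 of 9 genes fell and none rose. In the following stretch ZNF582 (0.35), ZNF667 (0.61), ZNF471 (0.62) and ZNF470 (0.61) rose, ZNF583 was not called, and ZNF71 at the far end fell (−0.74). The genes from ZNF628 to ZNF444 had r between −0.87 and −0.64 with the within-group axis. Those from ZNF582 to ZNF470 had r between 0.81 and 0.94, so position and this axis cannot be told apart here. Of the 14 falls in vehicle, 6 were in this cluster, where the vehicle median was −0.31.

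The other 8 clusters of this size had positive medians in dex. The cluster from ZNF576 to ZNF180 had 12 of 22 genes higher and 2 lower (ZNF576 and ZNF428, its first 2 genes), ZNF146 to ZNF573 had 8 of 24 higher, ZNF101 to ZNF257 had 7 of 18 (median 0.51), ZNF653 to ZNF791 had 7 of 17, ZNF414 to ZNF562 had 6 of 11 with 1 lower, ZNF724 to ZNF254 had 3 of 6 (median 0.52), and ZNF302 to ZNF792 had 2 of 5. The largest cluster, with 37 genes from ZNF264 to ZNF446 at the end of the long arm, had 7 higher and 2 lower with a median of 0.14. In vehicle the medians of the 10 clusters, other than the one from ZNF628 to ZNF71, lay between −0.13 and 0.07. Differences between clusters were not tested, because close paralogs that share reads are not independent values.

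**Figure D4:**
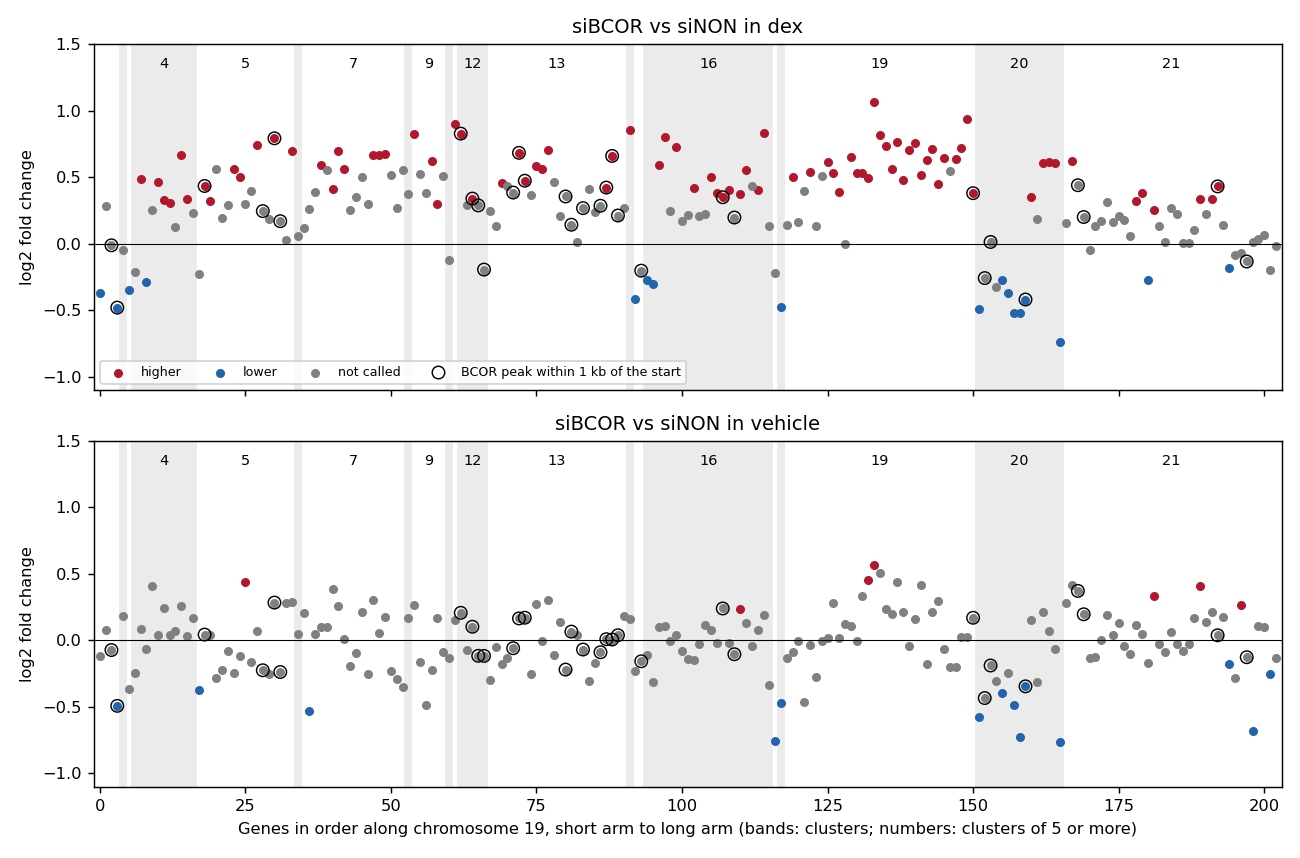
Log2 fold change of each of the 203 genes in their order along chromosome 19, siBCOR against siNON in dex (top) and in vehicle (bottom); red genes are called higher, blue lower and grey not called, circles mark a BCOR peak within 1 kb of the start, shading marks alternate clusters and numbers name those of 5 or more genes. In dex, cluster 19 has 26 of 33 genes higher and cluster 20 has 7 of 15 lower.

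Few genes answered dex in control cells. In siNON dex against siNON vehicle, 3 of the 203 genes rose and 8 fell, while over all genes tested 10.7% rose and 8.64% fell. The median log2 fold change was −0.14. The 8 became 29 without siNON dex replicate 4, 16 without siNON vehicle replicate 1 and 13 without siBCOR vehicle replicate 2, which enters through the shared spread. Of all genes 11.9%, 7.97% and 9.18% then fell. The 8 became 3, 4 or 5 without siNON dex replicate 3, 2 or 1, against 6.92%, 6.88% and 7.06% of all genes. They became 5 without siNON vehicle replicate 2 or 3, against 7.41% and 8.43%. With edgeR's RLE scaling 2 rose and 11 fell, against 9.32% and 9.29% of all genes. In siBCOR dex against siBCOR vehicle, 24 rose and 2 fell (ZNF574 and ZNF317), while over all genes 10.5% rose and 12.5% fell, and the median was 0.21. The 24 became 42 without siNON vehicle replicate 3, 8 without siBCOR vehicle replicate 2, 10 without siBCOR dex replicate 1, and 11 without siBCOR dex replicate 4 or siBCOR vehicle replicate 4. Of all genes 14.5%, 8.86%, 7.94%, 8.49% and 8.36% then rose. The 2 became 1 without siBCOR vehicle replicate 1, 5 without siBCOR vehicle replicate 3 and 6 without siNON dex replicate 4. Of all genes 10.5%, 11.9% and 14.1% then fell. With upper-quartile scaling 25 rose and 7 fell, against 9.69% and 14.4% of all genes. With the 3 libraries that stand apart left out, 49 rose and 7 fell in siBCOR cells, against 18.0% and 14.7% of all genes, and 3 rose and 33 fell in siNON cells, against 12.6% and 14.0% of all genes. The siNON dex and siBCOR dex libraries each enter a comparison of the siRNAs and a comparison of the treatments, so these counts are not independent of those above.

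ZNF57 had the largest response to dex in both backgrounds. It had 15.4, 14.8, 13.3 and 15.1 CPM in siBCOR dex, against 7.30, 5.50, 6.23 and 7.42 CPM in siBCOR vehicle. In control cells it had 14.6, 12.9, 13.5 and 18.3 CPM in siNON dex, against 6.53, 5.95, 8.34 and 7.04 CPM in siNON vehicle. Every dex library exceeded every vehicle library. The log2 fold change was 1.14 ± 0.13 in siBCOR cells (adjusted p = 2.76e-06) and 1.08 ± 0.13 in siNON cells (adjusted p = 4.9e-06).

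ZNF784 was the other gene that rose with dex in both. It had 10.2, 9.95, 10.0 and 8.76 CPM in siBCOR dex against 5.17, 7.18, 5.34 and 5.47 CPM in siBCOR vehicle (1.69-fold, adjusted p = 6.34e-05), and 11.5, 13.0, 12.0 and 10.7 CPM in siNON dex against 8.36, 8.18, 7.02 and 6.86 CPM in siNON vehicle (1.55-fold, adjusted p = 0.000262). The groups did not overlap in either. ZNF784 thus rose with dex and was lower in siBCOR at either treatment. The third gene that rose in control cells was ZNF576 (1.16-fold, adjusted p = 0.0272).

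Several further genes rose with dex in BCOR-depleted cells. ZNF540 had 8.64, 7.62, 9.09 and 8.09 CPM in siBCOR dex, against 5.33, 3.76, 5.34 and 5.20 CPM in siBCOR vehicle (1.70-fold, adjusted p = 0.00182), with no overlap. In control cells it had 4.88, 5.32, 4.17 and 6.95 CPM in siNON dex and 4.14, 5.13, 6.30 and 4.02 CPM in siNON vehicle, which overlapped and did not pass the test. ZNF837, at the low end of the count range, had 2.80, 2.72, 2.74 and 2.03 CPM in siBCOR dex, against 1.07, 2.03, 1.14 and 1.48 CPM in siBCOR vehicle (1.83-fold, adjusted p = 0.00352). ZNF613 had 6.36, 4.87, 6.48 and 5.95 CPM in siBCOR dex, against 3.27, 2.51, 4.25 and 3.39 CPM in siBCOR vehicle (1.76-fold, adjusted p = 0.00347), with no overlap.

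Among the genes that fell with dex in control cells, ZNF296 had 3.94, 4.19, 3.58 and 3.53 CPM in siNON dex, against 7.45, 6.00, 4.95 and 6.55 CPM in siNON vehicle (log2 fold change −0.71, adjusted p = 0.0018), with no overlap. It was also lower in siBCOR vehicle, with 3.12, 4.48, 3.51 and 3.76 CPM against the same siNON vehicle libraries (−0.75, adjusted p = 0.00233). ZNF257 had the largest fall (−0.73, adjusted p = 0.0232) but its groups overlapped, with 1.75, 2.68, 1.92 and 3.81 CPM in siNON dex and 3.62, 3.39, 5.63 and 3.84 CPM in siNON vehicle.

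The difference between the dex responses of the 2 backgrounds was itself tested. No gene of the 203 was called by edgeR, while over all genes 0.0183% were called higher in siBCOR and 0.0791% lower. At an unadjusted p under 0.05 there were 55 genes (27.1%), against 19.2% of all genes. DESeq2 called 1 of the 203, while over all genes it called 0.134% higher and 0.151% lower. The median difference was 0.31 on the log2 scale and 174 of 203 values were above 0, against a median of −0.02 over all genes. The genes nearest to a call were ZNF229 (log2 difference 0.64 ± 0.18, SE), ZNF14 (0.79 ± 0.23), ZNF816 (0.80 ± 0.24) and ZNF222 (0.57 ± 0.17). Their adjusted p-values were 0.185 to 0.195 in edgeR's model over all genes. Without siNON dex replicate 4, 51 of the 203 genes were called higher and 1 lower, while 8.70% of all genes were called higher and 6.62% lower. With the 3 libraries that stand apart left out, 45 were called higher and 1 lower, while 8.64% of all genes were called higher and 3.85% lower. A larger dex response in siBCOR cells is the same quantity as a larger siBCOR effect in dex, so ZNF528, ZNF302 and the cluster from ZNF175 to ZNF331 were not shown to differ between treatments with all libraries in.

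**Figure D5:**
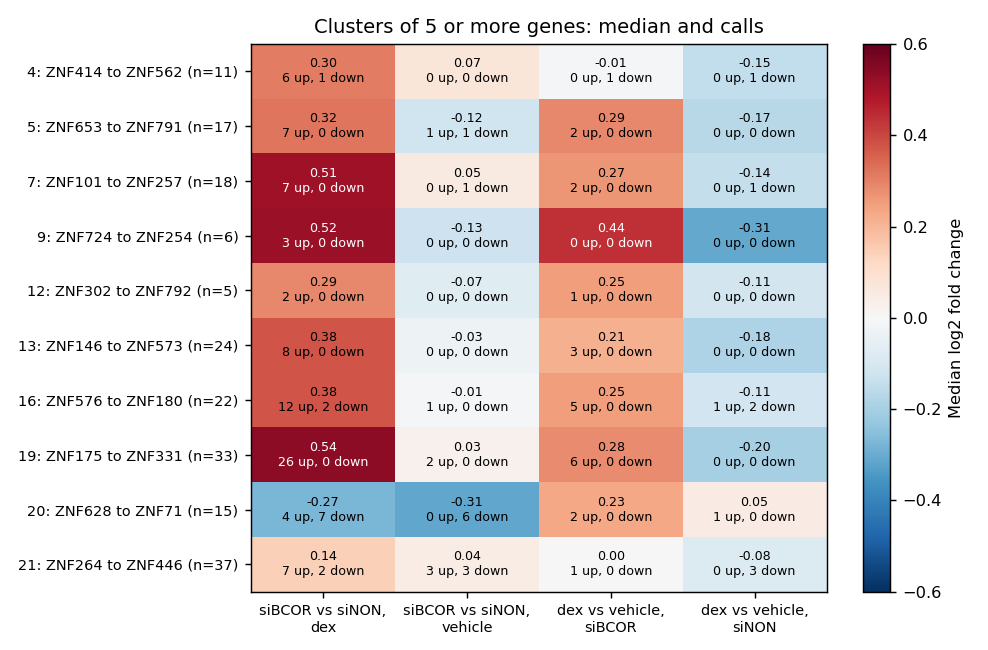
Median log2 fold change (colour and upper number) and number of genes called higher and lower in the 10 clusters of at least 5 genes, in 4 comparisons. With dex, siBCOR against siNON is positive in 9 of the 10 clusters and −0.27 in the cluster from ZNF628 to ZNF71.

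Of the 203 genes, 118 were called in at least 1 of the 4 comparisons and 85 in none. Per kilobase of exon, the median level was 3.15 CPM per kb, against 10.4 CPM per kb in all protein-coding genes of at least 50 counts. The highest was ZNF146 (66.6 CPM per kb), a protein made almost wholly of fingers, followed by ZNF428 (46.1) and ZNF227 (37.6). ZNF146 had 272, 246, 273 and 291 CPM in siBCOR dex, 249.8, 196, 270.1 and 231 CPM in siBCOR vehicle, 219, 208, 188 and 298 CPM in siNON dex and 245, 283, 371 and 264 CPM in siNON vehicle, and was not called in any comparison. ZNF146 overlaps ZNF565 and ZNF428 overlaps SRRM5, so part of their counts may belong to the other gene.

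A smaller share of these genes than of all expressed protein-coding genes had a BCOR peak at the start, described here with no test. Their share was nearer to that of the ZNF genes on other chromosomes. Only the count minimum was matched, and the median count was 267 in the 203 genes. It was 421 in the ZNF genes on other chromosomes and 826 in the protein-coding genes. A peak lay within 1 kb of the start site in 31 of the 203 genes (15.3%), against 22.8% of 12458 protein-coding genes with the same count minimum, 18.3% of the ZNF genes on other chromosomes and 30.1% of the other protein-coding genes on chromosome 19. Of the 14 further zinc finger symbols on chromosome 19, 4 (28.6%) had a peak. The 31 genes lay at 29 distinct peaks, since ZNF529 shares one with ZNF382 and ZNF571 one with ZNF540. The peak was of the shared list at 29 genes, enriched with dex at 2 (ZNF331 and ZNF497) and enriched with vehicle at none. The genes with a peak were unevenly placed, with 10 (at 8 peaks) in the cluster from ZNF146 to ZNF573, 1 among the 33 genes from ZNF175 to ZNF331, and none in 3 of the 10 larger clusters. The peak of ZNF57, on hg19 at chr19:2900303-2900654, lay 242 bases from its start, and that of ZNF302, at chr19:35167944-35168325, lay 219 bases from its start.

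Calls for genes with and without a peak are set side by side, with no test. In siBCOR dex against siNON dex, 11 of 31 genes with a peak rose and 2 fell (median 0.29), and 73 of 172 without rose and 15 fell (median 0.34). Among all genes with the same count minimum, 22.0% of those with a peak rose and 22.8% fell, and 23.0% of those without rose and 20.8% fell. The 2 that fell with a peak were ZNF77 and ZNF444. ZNF77 had 7.16, 6.99, 5.43 and 7.09 CPM in siBCOR dex and 6.94, 5.45, 6.82 and 6.87 CPM in siBCOR vehicle, against 9.76, 8.34, 9.28 and 9.92 CPM in siNON dex and 8.96, 9.96, 8.42 and 9.44 CPM in siNON vehicle, with no overlap at either treatment (adjusted p = 0.00261 in dex and 0.00428 in vehicle). In siBCOR dex against siBCOR vehicle, 5 of 31 with a peak rose and none fell, and 19 of 172 without rose and 2 fell, while among all genes 12.5% with a peak and 10.3% without rose. Of the 6 genes with the largest rise in dex after BCOR depletion (ZNF528, ZNF813, ZNF507, ZNF546, ZNF229 and ZNF302), ZNF302 alone had a peak within 1 kb.

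The promoters were read from RefSeq on GRCh38.p14, 250 bases before to 50 bases after the listed start, for 183 of the 203 genes. Those windows were not mapped to the start sites of the hg19 count table. The promoters of ZNF57 (GRCh38.p14 chr19:2900678-2900977, plus strand), the gene with the largest dex response, and of its neighbour ZNF77 (chr19:2944922-2945221, minus strand), lower after BCOR depletion, are shown 5′ to 3′ with each GTCCAATCA in capitals.
ZNF57: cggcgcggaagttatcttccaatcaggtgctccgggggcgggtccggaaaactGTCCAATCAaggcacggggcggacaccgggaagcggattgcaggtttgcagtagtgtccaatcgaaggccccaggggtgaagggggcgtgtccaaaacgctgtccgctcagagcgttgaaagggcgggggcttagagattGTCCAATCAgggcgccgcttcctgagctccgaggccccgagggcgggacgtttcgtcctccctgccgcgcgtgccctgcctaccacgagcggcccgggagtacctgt
ZNF77: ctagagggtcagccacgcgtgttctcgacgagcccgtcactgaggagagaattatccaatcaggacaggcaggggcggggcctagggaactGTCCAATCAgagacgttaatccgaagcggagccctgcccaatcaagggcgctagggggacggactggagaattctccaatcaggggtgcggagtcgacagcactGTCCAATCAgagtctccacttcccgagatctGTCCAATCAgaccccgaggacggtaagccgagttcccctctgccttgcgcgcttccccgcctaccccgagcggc

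The word GTCCAATCA contains CCAAT, the core of the site of the promoter factor NF-Y. Both words, and a second word ACTACATTTCCCAG, were picked after these sequences were seen, and all were counted on both strands. GTCCAATCA was found in 28 of the 183 promoters (15.3%), against 0.568% of 27305 RefSeq promoters, 5.92% of 169 promoters of ZNF genes on other chromosomes and 0.176% of 569 of other protein-coding genes on chromosome 19. In 27 of the 28 it read along the gene, and its first base lay a median of 59 bases before the start (range 197 to 45). All 28 were in the clusters of the short arm, with 6 of 6 promoters from ZNF724 to ZNF254, 12 of 15 from ZNF101 to ZNF257, 6 of 17 from ZNF653 to ZNF791, 3 of 4 from ZNF554 to ZNF77, and the single gene ZNF492. CCAAT, which the 28 hold by construction, was in 92 of 183 (50.3%), against 35.7% of all promoters. It was in 43.8% of the promoters of ZNF genes on other chromosomes and 40.1% of those of other protein-coding genes on chromosome 19. Stretches of 39 bases around the word on GRCh38.p14, from up to 2 genes of each of these clusters and with the word in capitals, show how much of the flanking sequence neighbours share.
ZNF555 (chr19:2841397-2841435, plus strand): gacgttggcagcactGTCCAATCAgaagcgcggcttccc
ZNF57 (chr19:2900716-2900754, plus strand): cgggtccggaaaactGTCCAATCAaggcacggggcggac
ZNF433 (chr19:12035722-12035760, minus strand): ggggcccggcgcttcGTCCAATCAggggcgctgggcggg
ZNF20 (chr19:12140392-12140430, minus strand): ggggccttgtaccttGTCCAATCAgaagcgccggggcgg
ZNF101 (chr19:19668752-19668790, plus strand): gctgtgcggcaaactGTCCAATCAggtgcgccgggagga
ZNF14 (chr19:19733144-19733182, minus strand): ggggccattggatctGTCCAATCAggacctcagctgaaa
ZNF492 (chr19:22634255-22634293, plus strand): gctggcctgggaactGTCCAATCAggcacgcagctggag
ZNF724 (chr19:23250425-23250463, minus strand): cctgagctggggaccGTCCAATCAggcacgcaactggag
ZNF91 (chr19:23395508-23395546, minus strand): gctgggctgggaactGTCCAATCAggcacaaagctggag

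ACTACATTTCCCAG was found in 14 of the 183 promoters (7.65%), against 0.253% of all promoters, and these were on the long arm, with 6 of 23 from ZNF146 to ZNF573, 6 of 18 from ZNF576 to ZNF180, and ZNF546 and ZNF331. The word was in 1.78% of the promoters of ZNF genes on other chromosomes and 0.879% of those of other protein-coding genes on chromosome 19. Among the 14 it stood on the gene's strand in 6 and on the other strand in 8. Stretches of 44 bases around it are shown in the same way.
ZNF850 (chr19:36772866-36772909, minus strand): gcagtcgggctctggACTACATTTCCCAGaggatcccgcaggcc
ZNF420 (chr19:37078325-37078368, plus strand): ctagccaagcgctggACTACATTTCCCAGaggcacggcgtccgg
ZNF546 (chr19:39997018-39997061, plus strand): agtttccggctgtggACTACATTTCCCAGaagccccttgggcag
ZNF283 (chr19:43827244-43827287, plus strand): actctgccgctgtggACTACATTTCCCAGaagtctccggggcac
ZNF331 (chr19:53520873-53520916, plus strand): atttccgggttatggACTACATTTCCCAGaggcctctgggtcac

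Calls for genes with and without each word are set side by side, with no test. In siBCOR dex against siNON dex, 10 of the 28 genes with GTCCAATCA rose and 1 fell (median 0.45), and 64 of 155 without it rose and 15 fell (median 0.30). Of the 14 with ACTACATTTCCCAG, 6 rose and none fell (median 0.38), and of 169 without it 68 rose and 16 fell (median 0.30). The words mark clusters, so position and word cannot be told apart. The glucocorticoid response element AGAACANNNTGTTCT was in none of the 183 windows and in 1 of all 27305, which says only that these letters are not in these windows.

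BCOR's complex is known for CpG islands, and the promoters were read for CpG. The median number of CpG in 300 bases was 21 over the 183 promoters, 23 for the 28 with a BCOR peak and 21 for the 155 without, against 27 over expressed protein-coding genes. Among those protein-coding genes the median was likewise higher with a peak (28) than without (26). The promoter of ZNF302 (GRCh38.p14 chr19:34677428-34677727, plus strand), which has a peak and rose, holds 28, and that of ZNF71 (chr19:56595052-56595351, plus strand), which has no peak within 1 kb and fell, holds 31. Both are shown with CpG in capitals.
ZNF302: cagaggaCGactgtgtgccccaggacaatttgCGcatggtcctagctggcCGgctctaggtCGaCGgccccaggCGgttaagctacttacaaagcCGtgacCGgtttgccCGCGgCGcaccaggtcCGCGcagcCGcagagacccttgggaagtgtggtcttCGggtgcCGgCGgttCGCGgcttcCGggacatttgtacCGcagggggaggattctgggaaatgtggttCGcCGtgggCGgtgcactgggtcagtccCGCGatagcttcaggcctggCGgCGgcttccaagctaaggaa
ZNF71: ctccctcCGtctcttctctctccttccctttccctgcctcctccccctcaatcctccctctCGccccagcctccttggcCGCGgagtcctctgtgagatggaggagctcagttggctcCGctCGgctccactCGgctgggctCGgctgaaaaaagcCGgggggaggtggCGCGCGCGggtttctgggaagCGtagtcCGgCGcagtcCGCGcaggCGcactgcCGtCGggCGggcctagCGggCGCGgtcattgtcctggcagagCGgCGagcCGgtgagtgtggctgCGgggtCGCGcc

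The corepressors that KRAB zinc finger proteins work through were read from a list of 42 genes, of which 41 were tested. In siBCOR dex against siNON dex, 9 rose (22.0%) and 13 fell (31.7%), beside 20.7% and 18.8% of all genes, with a median log2 fold change of −0.06. In siBCOR vehicle against siNON vehicle, 2 rose (4.88%) and 5 fell (12.2%), beside 8.87% and 8.23% of all genes. In dex against vehicle, 3 rose and 3 fell in siBCOR cells (7.32% each, beside 10.5% and 12.5% of all genes), and 3 rose and 2 fell in siNON cells (7.32% and 4.88%, beside 10.7% and 8.64%). TRIM28, the shared corepressor, averaged 607 ± 37.1 CPM in siBCOR dex and 680.1 ± 51.3 CPM in siBCOR vehicle, against 844 ± 82.1 CPM in siNON dex and 823 ± 82.0 CPM in siNON vehicle (SD, n = 4 each). It fell in both, with log2 fold changes of −0.48 and −0.28, and was named for its role. MTA2, a subunit of the NuRD deacetylase complex, fell by 0.81 in dex and by 0.67 in vehicle on the log2 scale, the deacetylase HDAC1 by 0.44 and 0.29, and UHRF1, which maintains DNA methylation, by 0.59 and 0.50. ATF7IP2, a relative of the SETDB1 cofactor ATF7IP, rose by 0.69 and 0.42. With dex, TRIM24 rose in both backgrounds (1.67-fold in siBCOR cells and 1.68-fold in siNON cells), as did PIAS1, while CHD4 and DNMT3B fell in siBCOR cells and CBX3 fell in siNON cells. SETDB1 was not called in any of the 4 comparisons.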

How the data were processed

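RNA was measured by sequencing in 16 libraries of 4 groups, and BCOR binding by ChIP-seq in 4 libraries. Per the file headers, the deposited values are raw read counts over exons of RefSeq transcripts on hg19, made with HOMER, without length or depth scaling. Per the submitters' processing notes, FastQC, Bowtie 0.12.9, HOMER 4.10.3, bedtools, Trimmomatic and TopHat2 were used. The study text mentions fewer replicates than the 4 per group that the labels list, and all 4 were used. The deposited peak lists give positions, and the score the authors deposited is 0 for every peak and was not used. Whether peaks were called on pooled libraries is not given in the sources used here.

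For each symbol the transcript with the most reads was kept. Rows without a gene name (134 transcripts, 0.0664% of counts) were left out. Counts were fitted with edgeR 4.0.16 in R 4.3.3 (TMM, filterByExpr, 4 group means over 16 libraries, quasi-likelihood F test), and p-values were adjusted by Benjamini-Hochberg over 16432 genes and called at 0.05. CPM (reads per 1000000) uses TMM-scaled library sizes. The script was tested on simulated data. Overlap of a peak with the 1000 bases on either side of a start site counted as a peak at the gene. Alternatives were DESeq2 1.42.0, RLE and upper-quartile scaling, no filter, a fit of only the groups compared, a replicate block, the longest transcript, other count minimums, gaps and windows, each library left out, 2 libraries left out together and, chosen after seeing the data, 3 libraries left out, the within-group axis as a covariate and any annotated start site. In each comparison the genes named were the 6 called with the largest change in each direction, the 4 with the smallest adjusted p, up to 10 called genes with a peak by adjusted p, and the 3 highest per length with ZNF274; not all are described at length. The genes and lists were chosen with earlier results of these data known.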

Additional observations from a re-analysis of the deposited data

Results flagged for a closer look

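Among the genes named, 180 groups of 4 libraries were looked at for a single library far from the other 3 by Dixon's test, and 17 stood out. The cut passes about 1 in 20 groups taken singly. These groups share the same libraries, and the genes were named for their values in these data, so the count was not compared with chance. Those in siNON dex replicate 4 were high for ZNF461 (16.7 CPM, the others at most 13.4 CPM), ZNF507 (83.5 CPM) and ZNF709 (5.10 CPM). Those in siNON vehicle replicate 3 were high for ZNF507 (107 CPM) and ZNF613 (6.09 CPM). In siBCOR vehicle replicate 2, ZNF540 (3.76 CPM), ZNF559 (6.75 CPM) and ZNF77 (5.45 CPM) were low and ZNF784 (7.18 CPM) was high. These are the 3 libraries that lie farthest out on the within-group axis. In siBCOR dex replicate 4, ZNF317 (35.2 CPM), ZNF784 (8.76 CPM) and ZNF837 (2.03 CPM) were low. In siNON dex replicate 2, ZNF274 (64.9 CPM) and ZNF428 (81.0 CPM) were high. The rest were ZNF71 in siNON vehicle replicate 1 (19.1 CPM, high), ZNF599 in siNON vehicle replicate 2 (7.11 CPM, high) and ZNF77 in siBCOR dex replicate 3 (5.43 CPM, low).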

How the results depend on the processing

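No fold change of a named gene reversed its direction under any alternative run, while the median over the 203 genes for siBCOR in vehicle, 0.005 with all libraries, changed sign with RLE, upper-quartile or DESeq2 scaling, no filter, a minimum of 100 counts and with some single libraries left out. Of 1556 values of named genes under alternatives, 1408 kept direction and side of the threshold, 131 lost the call and 17 gained it. With only the compared groups in the fit, siBCOR against siNON in vehicle called 1 higher and 7 lower, and dex called 2 lower in siNON cells and 48 higher in siBCOR cells. Upper-quartile scaling and no filter on low counts each gave 13 lower with dex in siNON, upper-quartile scaling gave 7 lower with dex in siBCOR, and DESeq2 gave 4 lower there and 1 for the difference between backgrounds. The shares of all genes were 8.95% and 6.42% in siNON, 14.4% with upper-quartile scaling in siBCOR and 9.12% with DESeq2 there. For the difference DESeq2 called 0.134% of all genes higher and 0.151% lower. The replicate block left 5 lower with dex in siNON and 83 higher for siBCOR against siNON in dex, beside 8.22% and 20.3% of all genes. The replicate numbers were not shown to pair the libraries: deviations of same-numbered libraries correlated between −0.526 and 0.502, mean 0.0038 over 24 pairs, and those of other pairs between −0.643 and 0.654.

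Leaving out the pair siNON dex replicate 4 and siNON vehicle replicate 3 gave 13 higher for siBCOR in vehicle, 14 lower with dex in siNON, 60 higher and 6 lower with dex in siBCOR, and 39 for the difference. Of all genes, 9.22% were then higher for siBCOR in vehicle and 10.1% lower with dex in siNON. With dex in siBCOR 18.8% were higher and 15.4% lower, and for the difference 7.19% were higher and 3.64% lower. Also without siBCOR vehicle replicate 2 they were 50 higher and 25 lower for siBCOR in vehicle, 139 higher in dex, 33 lower with dex in siNON, 49 higher and 7 lower with dex in siBCOR, and 45 higher and 1 lower for the difference. Adding the within-group axis to the model gave 33 and 35 for siBCOR in vehicle, 139 higher in dex, 7 and 60 with dex in siNON, 98 and 10 with dex in siBCOR, and 103 and 1 for the difference. Of all genes, 19.9% were then higher and 16.3% lower for siBCOR in vehicle, and 31.3% higher in dex. With dex 17.0% and 19.3% were called in siNON and 24.9% and 20.4% in siBCOR, and 17.8% and 11.9% for the difference. That axis was made from the deviations of these same libraries, which by construction shrinks the residual spread. Leaving out each library in turn gave 2 to 16 higher and 7 to 18 lower for siBCOR in vehicle, 51 to 126 and 11 to 20 in dex, 2 to 3 and 3 to 29 with dex in siNON, 8 to 42 and 1 to 6 with dex in siBCOR, and 0 to 51 and 0 to 1 for the difference. The medians ranged from −0.06 to 0.08, 0.28 to 0.41, −0.21 to −0.06, 0.13 to 0.26 and 0.24 to 0.40 in the same order. A gap of 250 kb gave 32 clusters. A peak lay within 500 bases of 30 genes and within 5000 bases of 35. For genes of a few CPM, counting error limits what could be called.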
